A study of Mus musculus with 18 samples.

Results

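The xenobiotic metabolism genes examined here were 38 mouse genes that encode cytochromes P450 and their electron donor, other oxidising, reducing and hydrolysing enzymes, glutathione transferases, glucuronosyl and sulfo transferases, efflux pumps and 2 ligand-activated receptors. They were listed by symbol, with earlier results of these data known, and no measured value entered the rule. All 38 were found among the 55487 genes of the deposited counts, and all passed the filter on low counts that left 15247 genes for testing. RNA had been sequenced from small intestinal organoids of wild-type female C57BL/6 mice, which are cultures grown in Matrigel from crypts. After 4 passages the cultures received 1 μM norepinephrine (n = 5), HCl as its vehicle (n = 4), 1 μM of the α2-adrenergic receptor agonist UK14,304 (n = 5) or DMSO as its vehicle (n = 4) for 4 days. The labels of the 18 samples carry "m" and a number, which was read here as 1 of 5 mice. On this reading mice 1 to 4 gave a sample to each group and mouse 5 gave only the agonist samples. In this way each agonist could be compared with its own vehicle within mice. An organoid of this kind holds no nerve, vessel or immune tissue. The labels do not tell how many cultures each mouse gave. An animal, its culture and a set of samples handled under the same number therefore cannot be told apart. Whole organoids were sequenced, so fewer cells of a type and less RNA per cell cannot be told apart either.

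Xenobiotic metabolism proceeds in steps. Cytochromes P450, which receive electrons from the reductase Por, and alcohol and aldehyde dehydrogenases, epoxide hydrolases and quinone reductases first expose or create a reactive group, and transferases then attach glutathione, glucuronic acid or sulfate. Efflux pumps of the ABC family move drugs and conjugates out of the cell, and the receptors encoded by Nr1i2 (the pregnane X receptor) and Ahr (the aryl hydrocarbon receptor) bind foreign compounds and switch on genes of the pathway. In the small intestine these genes are known mainly from absorptive enterocytes, where they meet compounds from food before the liver does.

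Total counts were 21.87 to 27.85 M per library. Levels below are TMM-normalised CPM, the counts of a gene relative to the normalised total of its library. A gene is said to pass when its adjusted p in edgeR's quasi-likelihood test, with the mouse as a block and Benjamini-Hochberg adjustment over all 15247 genes, is under 0.05. The 10 enterocyte markers listed (among them Alpi, Fabp1, Apoa1 and Sis) were all detected and summed to 25356 to 33188 CPM per library, whereas 6 hepatocyte markers summed to 19.0 to 27.6 CPM and 10 markers of mesenchyme, endothelium and blood to 8.66 to 12.6 CPM. Markers of stem, Paneth, goblet and enteroendocrine cells were also present, so the values of the xenobiotic genes are those of mixed epithelium and not of sorted enterocytes. Ribosomal RNA took 1.83 to 3.06% of the counts in 7 libraries (1 with HCl vehicle, 2 with norepinephrine, 3 with DMSO vehicle and 1 with UK14,304) and 0.313 to 0.619% in the other 11.

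The sequences upstream of 4 of the genes are shown because the results below turn on them: Adh6a was the gene that passed with UK14,304, Cyp1a1 stood out in a single library, and Cyp2c65 and Cyp2c66 are neighbours that share most of their sequence. Each run is the 250 bases before the RefSeq start (GRCm38.p6), 5′ to 3′ on the strand of the gene. The windows lie at chr3:138313036-138313285 for Adh6a, chr9:57697363-57697612 for Cyp1a1, chr19:39060756-39061005 for Cyp2c65 and chr19:39113648-39113897 for Cyp2c66, all on the plus strand. Capitals mark the letters TATAAA (those of a TATA box), GCGTG (the core of the site bound by the aryl hydrocarbon receptor) and CAAAGTCCA (a site of the enterocyte regulator Hnf4a). TATAAA was marked wherever it occurred, also far from the start as in Cyp2c65 and Cyp2c66, and is not thereby the TATA box of the gene.
Adh6a: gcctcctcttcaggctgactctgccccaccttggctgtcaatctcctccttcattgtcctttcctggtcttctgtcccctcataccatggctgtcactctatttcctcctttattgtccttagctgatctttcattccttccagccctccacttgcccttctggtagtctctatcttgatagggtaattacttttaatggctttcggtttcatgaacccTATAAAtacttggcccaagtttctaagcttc
Cyp1a1: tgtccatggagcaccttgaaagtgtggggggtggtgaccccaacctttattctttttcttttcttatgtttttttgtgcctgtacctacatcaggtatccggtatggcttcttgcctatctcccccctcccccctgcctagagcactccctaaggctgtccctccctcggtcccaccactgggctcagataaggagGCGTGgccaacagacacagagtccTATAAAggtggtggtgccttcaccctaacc
Cyp2c65: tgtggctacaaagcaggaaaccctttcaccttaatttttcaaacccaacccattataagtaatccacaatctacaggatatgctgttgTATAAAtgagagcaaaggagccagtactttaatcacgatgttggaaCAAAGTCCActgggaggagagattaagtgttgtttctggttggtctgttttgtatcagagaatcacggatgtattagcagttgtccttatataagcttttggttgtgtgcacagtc
Cyp2c66: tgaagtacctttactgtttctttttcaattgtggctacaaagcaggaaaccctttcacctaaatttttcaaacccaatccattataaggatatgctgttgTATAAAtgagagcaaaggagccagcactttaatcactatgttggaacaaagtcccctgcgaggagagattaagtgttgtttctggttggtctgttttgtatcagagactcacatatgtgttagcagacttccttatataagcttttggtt

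A RefSeq promoter was found for 34 of the 38 genes. Motifs, chosen after some of the sequences had been read, were searched on both strands of the 250 bases. TATAAA was held by 11 of the 34 genes and by 14.3% of the 27025 genes with a promoter. It began 31 bases before the start in Adh6a, 30 in Cyp1a1, 162 in Cyp2c65 and 150 in Cyp2c66. GCGTG was held by 9 of the 34 genes (Cyp1a1, Cyp2b10, Cyp4f14, Por, Gstm1, Gstp1, Mgst3, Sult1b1 and Sult1d1) and by 30.9% of all genes. In Cyp1a1 it began 54 bases before the start. CAAAGTCCA was held by Cyp2c65 and Cyp3a11 and by 0.451% of all genes. TGACNNNGC, the antioxidant response element, was held by 4 of the 34 genes (Cyp4f14, Adh6a, Mgst1 and Abcc2) and by 11.5% of all genes. AGGTCA, a nuclear receptor half-site, was held by 6 of the 34 (Cyp3a11, Cyp3a25, Gstk1, Sult1b1, Abcc2 and Abcg2) and by 15.8% of all genes. The Cyp2c65 and Cyp2c66 windows were identical at 208 of 221 aligned bases (94.1%), and their transcripts matched at 96.4% identity over 1613 bp. These matches describe the letters of the window and do not show that a factor bound there.

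The genes lie partly in clusters. On chromosome 19 of GRCm38, Cyp2c55 (39007019 to 39042693), Cyp2c65 (39061015 to 39093944) and Cyp2c66 (39113898 to 39187072) followed each other on the plus strand. On chromosome 3, Adh1 (138260991 to 138290698) was followed by Adh6a (138313286 to 138331134). Cyp3a11 (145854426 to 145879964) and Cyp3a25 (145977194 to 146009618) lie near each other on the minus strand of chromosome 5. Reads that mapped to several places or lay over several genes were not counted and strand was not used, so genes with near copies lost reads. The longest such matches at 95% identity or more were those of Cyp3a25 with Cyp3a59 (1991 bp), Cyp2c65 with Cyp2c66 (1613 bp), Gsta1 with Gm10639 (874 bp), Gstp1 with Gstp2 (707 bp), Gstm1 with Gstm2-ps1 (657 bp) and Gstm3 with Gm8834 (567 bp). The levels of these genes are uncertain for that reason. Abcb1a, Adh1, Ahr and Cyp2c55 each overlap an antisense gene, and reads lying over exons of both were not counted for either.

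The 38 genes together took 1.12 to 1.40% of the normalised counts in a library. To compare genes, levels were divided by the exon length and averaged over the 8 vehicle samples (CPM per kb, ± SD, n = 8 samples of 4 mice). Adh1, which oxidises alcohols and retinol, was the highest at 803 ± 137 CPM per kb, and its lowest vehicle sample lay above the highest of the next gene. That was Gstm1, a cytosolic glutathione transferase, at 333 ± 32.1 CPM per kb, and it overlapped with Cyp4f14, a fatty acid hydroxylase, at 327 ± 23.98 CPM per kb.

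Further down, neighbours in the order overlapped all the way from Gstm1 to Nr1i2. Among the P450 genes, of which not all are named here, Cyp2j6 (180 ± 23.3 CPM per kb), Cyp2c65 (143 ± 25.9 CPM per kb) and the reductase Por (140 ± 14.5 CPM per kb) lay above Cyp3a25 (75.6 ± 3.88 CPM per kb), Cyp2c55 (63.2 ± 8.29 CPM per kb) and the drug-oxidising Cyp3a11 (44.8 ± 3.77 CPM per kb). Aldh1a1, which oxidises retinal, was at 198 ± 25.9 CPM per kb and Adh6a at 93.6 ± 19.3 CPM per kb. Ugt2b34, the glucuronosyltransferase of the group, was at 152 ± 13.7 CPM per kb. Among the efflux pumps the conjugate pump Abcc2 was the highest at 73.9 ± 4.56 CPM per kb, and its range overlapped those of genes close to it in the order. Abcb1a (P-glycoprotein) was at 45.0 ± 7.11 CPM per kb and the lowest pump, Abcg2, at 17.4 ± 0.948 CPM per kb. The receptor Nr1i2 was at 37.5 ± 2.24 CPM per kb, clear of Abcg2 below it. Ahr was at 5.43 ± 0.583 CPM per kb, below every other member except Cyp1a1. Cyp1a1, the best known target of the aryl hydrocarbon receptor, was at 0.125 ± 0.0421 CPM per kb, which corresponded to 4 to 12 counts in a vehicle library.

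**Figure D1:**
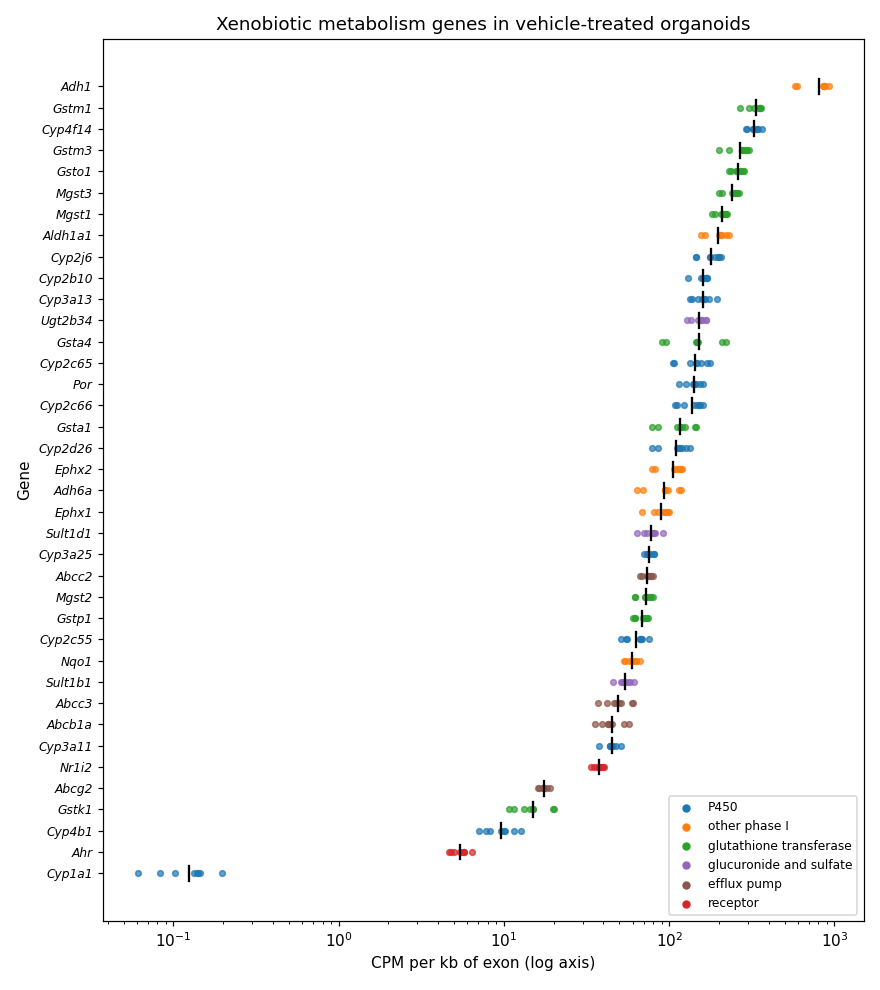
Levels of the 38 genes in the 8 vehicle samples, in CPM per kb of exon on a log axis, with 1 point per sample, a bar at the mean and colour by enzyme class. Adh1 stands alone at the top (mean 803), most genes lie close together below it, and Ahr (5.43) and Cyp1a1 (0.125) lie at the bottom.

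The comparison of norepinephrine with HCl vehicle asked whether a general adrenergic agonist altered these genes. None of the 38 passed (0 of 38, beside 16 of 15247 genes or 0.105% of all tested), and DESeq2 with the same block also called 0 (0.264% of all genes). At an unadjusted p under 0.05 there were 4 members, beside 8.4% of all genes. The median log2 fold change of the 38 was 0.03, beside -0.0077 over all genes, and single values ran from -0.13 (Gstk1, a mitochondrial and peroxisomal glutathione transferase) to 0.33 (Cyp1a1). The 95% confidence interval lay within 0.5 on the log2 scale on either side of 0 for 37 of the 38 genes and within 0.25 for 31, the exception to the wider bound being Cyp1a1.

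Cyp3a11 and Cyp3a25, neighbouring members of the CYP3A family of drug-metabolising enzymes, had the largest differences after Cyp1a1. Cyp3a11 was at 260, 224, 233 and 224 CPM with HCl vehicle in mice 1 to 4 and at 299, 231, 294, 222 and 298 CPM with norepinephrine in mice 1 to 5. The samples of mice 1, 3 and 5 with norepinephrine were above all vehicle samples, and those of mice 2 and 4 were not, so that the groups overlapped (log2 fold change 0.16 ± 0.064 SE, adjusted p = 0.568 in edgeR's test). Cyp3a25 was at 169, 152, 156 and 161 CPM with HCl vehicle and at 195, 159, 207, 150 and 214 CPM with norepinephrine, with the same 3 samples high and mouse 4 the lowest of all 9 (log2 fold change 0.15 ± 0.063 SE, adjusted p = 0.568).
Aldh1a1 was at 1140, 767, 1004 and 989 CPM with HCl vehicle and at 1139, 922, 1223, 931 and 1216 CPM with norepinephrine, higher in mice 2 and 3 and lower or level in mice 1 and 4 (log2 fold change 0.12 ± 0.051 SE, adjusted p = 0.57). Cyp4f14 was at 881, 716, 818 and 812 CPM with HCl vehicle and at 794, 685, 740, 833 and 745 CPM with norepinephrine. It was lower in mice 1 to 3 and higher in mouse 4 (log2 fold change -0.09 ± 0.041 SE, adjusted p = 0.589).

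The norepinephrine library of mouse 4 decided this result. Without it, 12 of the 38 genes passed, beside 16.7% of all genes tested, and the median log2 fold change of the 38 became 0.06. Cyp2c65 (0.16), Cyp2c66 (0.14), Cyp2j6 (0.18), Cyp3a11 (0.24), Cyp3a13 (0.15), Cyp3a25 (0.24), Aldh1a1 (0.19), Mgst1 (0.12), Ugt2b34 (0.18) and Ahr (0.17) were then higher with norepinephrine, and Cyp4f14 (-0.12) and Por (-0.14) lower. The adjusted p lay between 0.0024 for Cyp3a25 and 0.04 for Cyp3a13. Without any sample of mouse 4, 9 of the 38 passed, beside 15.1% of all genes. The excluded library differed from the others of its group in base composition: its log2 levels rose by 0.195 per 10 percentage points of GC content of the gene relative to the mean of all libraries, the highest slope of the 18. It was not the largest in size, since the library of mouse 4 with the other agonist had a slope of -0.222, the lowest of the 18. The other 4 norepinephrine libraries had slopes of -0.0699 to -0.146. With the GC trend removed from each library, 0 of the 38 genes passed in all 18 samples (background 0.203%), and 1, Aldh1a1, passed without the norepinephrine library of mouse 4 (background 3.21%).

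The comparison of UK14,304 with DMSO vehicle addressed the α2-selective agonist. Here 1 of the 38 genes passed, beside 186 of 15247 genes or 1.22% of all tested. This was Adh6a, an alcohol dehydrogenase, which was lower, beside 1.04% of all genes in the lower direction, and 0 members were higher, beside 0.177%. A count of 1 among 38 was near the background. At an unadjusted p under 0.05 there were 9 members, beside 14.8% of all genes. The median log2 fold change of the 38 was 0.03, beside -0.0043 over all genes, and values ran from -0.42 (Cyp1a1) to 0.19 (Cyp2j6). The 95% confidence interval lay within 0.5 of 0 on the log2 scale for 37 of the 38, again all but Cyp1a1, and within 0.25 for 27.

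Adh6a was at 241, 300, 162 and 240 CPM with DMSO vehicle in mice 1 to 4 and at 215, 251, 143, 206 and 228 CPM with UK14,304 in mice 1 to 5. In each of the 4 mice with both samples the UK14,304 sample was the lower, but mice differed by more than the treatment did, so that the groups overlapped. The log2 fold change was -0.19 ± 0.0448 SE (adjusted p = 0.0409), and with norepinephrine it was -0.09 ± 0.0447 SE (adjusted p = 0.592). The call passed in 16 of the 35 settings tried. It was lost without the block of mice (adjusted p = 0.73), where 0.0394% of all genes passed. It was also lost with a term for ribosomal RNA above or below 1% of the counts (adjusted p = 0.182), where 0.512% passed. The same held when any HCl vehicle library was left out (adjusted p between 0.0616 and 0.0684), where 0.97 to 1.01% passed. The log2 fold change stayed between -0.23 and -0.15. With DESeq2 and the block Adh6a was again the member that passed (adjusted p = 0.0123, beside 2.06% of all genes).

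Of the genes that did not pass, several were higher in all 4 mice, and those with the largest differences are given here. How many of all tested genes went the same way in all 4 mice was not counted. Cyp2j6, which oxidises arachidonic acid, was at 683, 526, 740 and 639 CPM with DMSO vehicle and at 745, 617, 809, 790 and 771 CPM with UK14,304, higher in each of mice 1 to 4 (log2 fold change 0.19 ± 0.053 SE, adjusted p = 0.104). Abcb1a, the pump of hydrophobic drugs, was at 242, 195, 293 and 233 CPM with DMSO vehicle and at 254, 222, 338, 246 and 297 CPM with UK14,304 (log2 fold change 0.14 ± 0.0408 SE, adjusted p = 0.127). In both genes mouse 2 was the lowest and mouse 3 the highest in either group.
Aldh1a1 was at 1085, 811, 1029 and 999 CPM with DMSO vehicle and at 1176, 901, 1188, 1112 and 1241 CPM with UK14,304 (log2 fold change 0.16 ± 0.0505 SE, adjusted p = 0.167). Cyp3a11 was at 242, 192, 227 and 224 CPM with DMSO vehicle and at 260, 215, 249, 273 and 266 CPM with UK14,304 (log2 fold change 0.17 ± 0.063 SE, adjusted p = 0.234). Except for the sample of mouse 2, the UK14,304 samples of both genes lay above the highest DMSO sample of the same gene.

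Cyp2c55, which oxidises arachidonic acid, went the other way in all 4 mice, at 109, 133, 102.4 and 134 CPM with DMSO vehicle and 97.96, 123, 86.0, 119 and 112 CPM with UK14,304 (log2 fold change -0.2 ± 0.0644 SE, adjusted p = 0.171). Its neighbours Cyp2c65 and Cyp2c66 were at 0.06 ± 0.0689 SE and 0.05 ± 0.0669 SE on the log2 fold change scale, with adjusted p of 0.706 and 0.729. Por was lower in all 4 mice (log2 fold change -0.12 ± 0.0526 SE, adjusted p = 0.293), as was Cyp4f14 (-0.09 ± 0.0412 SE, adjusted p = 0.297). Nr1i2 was at 96.4, 101.6, 86.2 and 98.4 CPM with DMSO vehicle and at 93.4, 96.9, 80.0, 86.6 and 99.6 CPM with UK14,304. Ahr was at 33.6, 35.4, 29.4 and 34.9 CPM with DMSO vehicle and at 35.4, 39.6, 31.3, 40.1 and 32.9 CPM with UK14,304. In both receptors the groups overlapped.

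Leaving out the norepinephrine library of mouse 4, which shares the estimate of the spread and of the mouse level, took the UK14,304 count from 1 to 8 of 38 (Cyp2j6, Cyp3a11, Cyp3a25, Aldh1a1, Mgst2 and Abcb1a higher, Por and Adh6a lower), beside 8.08% of all genes. With only the UK14,304 and DMSO samples in the model 6 passed, which were Adh6a, Cyp2c55, Cyp2j6, Cyp3a11, Aldh1a1 and Abcb1a, beside 3.55%. Leaving out the DMSO vehicle library of mouse 2 took it to 0, beside 0.442%. It was also 0 without any 1 of the 4 HCl vehicle libraries and without the norepinephrine library of mouse 1. The same held without the DMSO vehicle library of mouse 1 or 4, and without the UK14,304 library of mouse 1, 2, 3 or 4. It held too without all samples of mouse 1, 2 or 3. In these settings 0.15 to 1.28% of all genes passed, so a count of 0 among 38 was near the background. The UK14,304 library of mouse 4 had the GC slope farthest from that of the mean library, at -0.222. The other UK14,304 libraries had slopes of -0.0877 to 0.0605, and the DMSO vehicle libraries -0.0384 to 0.121. With the GC trend removed from each library, 2 of the 38 genes passed with UK14,304 (Cyp2j6 and Adh6a), beside 4.11% of all genes.

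**Figure D2:**
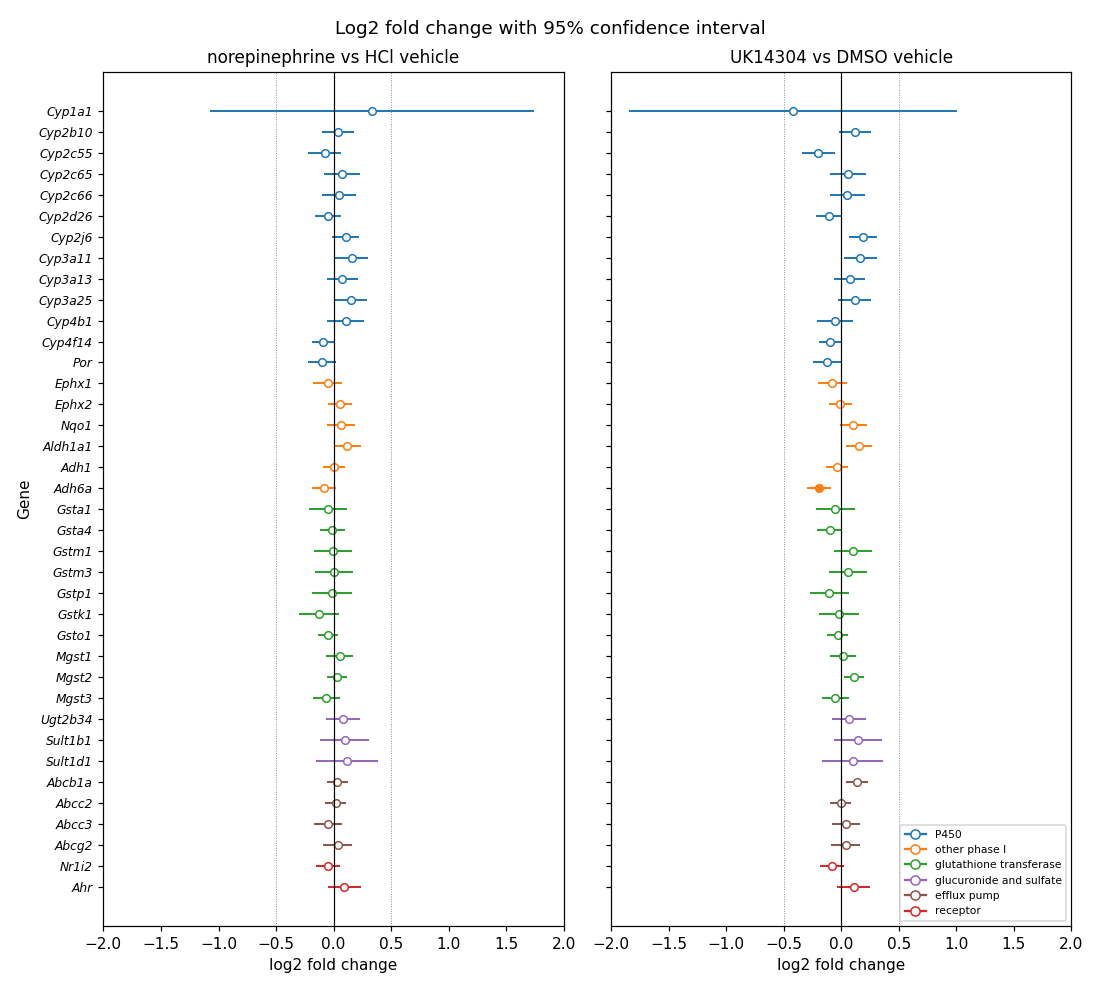
Log2 fold change of each of the 38 genes with its 95% confidence interval, for norepinephrine against HCl vehicle (left) and UK14,304 against DMSO vehicle (right), with dotted lines at 0.5 on either side of 0 and colour by enzyme class. The filled point is Adh6a, the gene with an adjusted p under 0.05, and all intervals except that of Cyp1a1 lie inside the dotted lines.

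**Figure D3:**
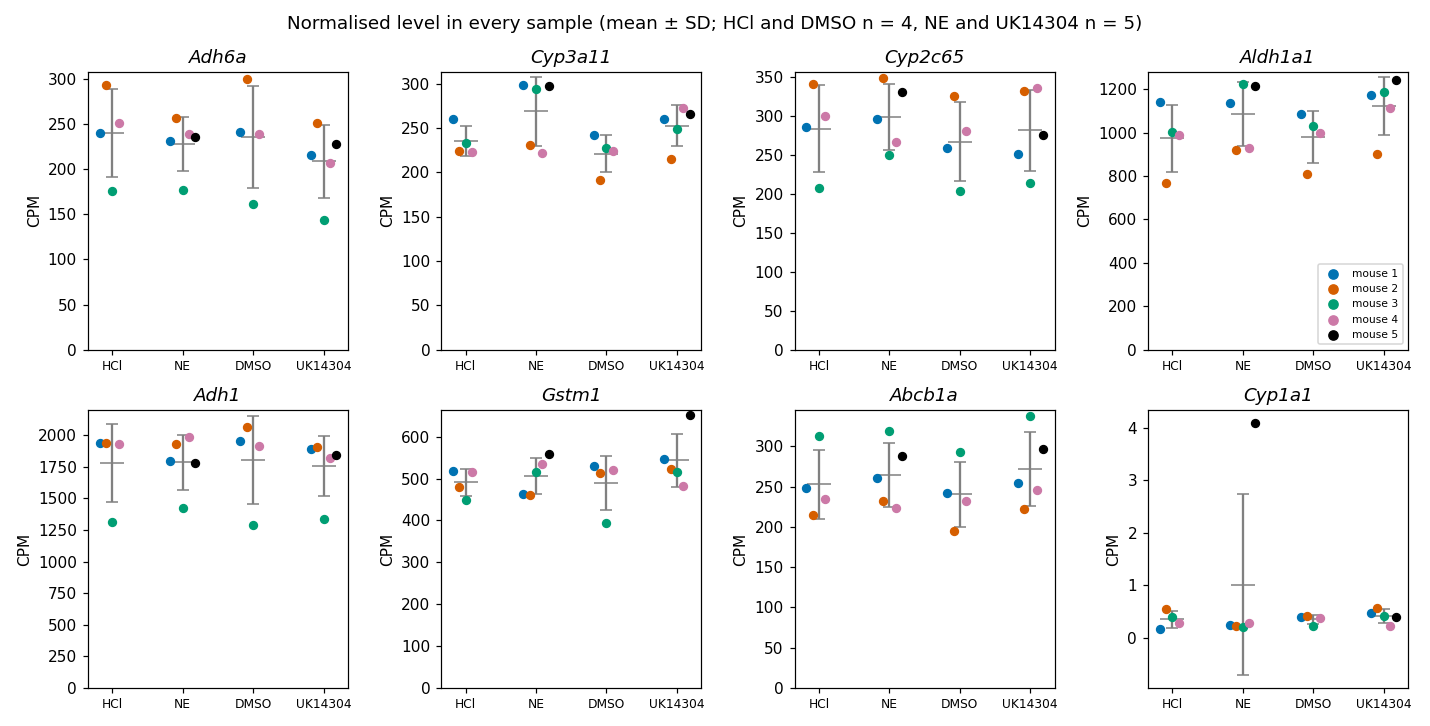
CPM of 8 of the genes in every sample, coloured by mouse, for HCl vehicle, norepinephrine (NE), DMSO vehicle and UK14,304, with the group mean and SD in grey. In every group mouse 3 is lowest for Adh6a and Adh1 and highest for Abcb1a, whereas the order of the mice changes between groups for Gstm1 and Cyp3a11. Cyp1a1 is high in the norepinephrine sample of mouse 5 alone.

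By class, the P450 group with the reductase Por had a median log2 fold change of 0.07 with norepinephrine and 0.05 with UK14,304 (13 genes, 0 passed in either). The medians were 0.03 and -0.02 in the other phase I enzymes (6 genes, 0 and 1 passed) and -0.01 and -0.02 in the glutathione transferases (10 genes, 0 passed). The medians were 0.1 and 0.1 in the glucuronosyl and sulfo transferases (3 genes, 0 passed), 0.03 and 0.04 in the pumps (4 genes, 0 passed) and 0.02 and 0.01 in the receptors (2 genes, 0 passed). Whether UK14,304 and norepinephrine differed in effect was tested in the same model. No member passed (0 of 38, 0 of all genes or 0% passed), and at an unadjusted p under 0.05 there were 0 members, beside 2.66% of all genes. For Adh6a the effect of UK14,304 minus that of norepinephrine was -0.11 on the log2 scale (adjusted p = 0.9999). Between the vehicles, HCl and DMSO, 0 of the 38 genes and 0% of all genes passed, and 1 member, Cyp2c55, had an unadjusted p under 0.05, beside 1.82% of all genes. DESeq2 with the block also called 0 members in both of these comparisons.

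Other genes of the pathway, 184 listed by name for comparison of which 150 were tested, gave 0 calls with norepinephrine (beside 0.105% of all genes, median log2 fold change -0.03). With UK14,304 they gave 4 calls (beside 1.22% of all genes, median -0.02). The P450 gene Cyp2c29 was higher with UK14,304 (log2 fold change 0.39 ± 0.061 SE, adjusted p = 0.00303, higher in 4 of 4 mice). The P450 gene Cyp2s1 was lower (-0.37 ± 0.0655 SE, adjusted p = 0.0066), as were the carboxylesterase gene Ces2b (-0.27 ± 0.0635 SE, adjusted p = 0.0447) and the sulfotransferase gene Sult1c2 (-0.53 ± 0.0695 SE, adjusted p = 0.00062), each in 4 of 4 mice. Without the block of mice in edgeR's model none of these passed (adjusted p between 0.454 and 0.724), beside 0.0394% of all genes. The log2 fold changes there were 0.46 for Cyp2c29, -0.4 for Cyp2s1, -0.3 for Ces2b and -0.56 for Sult1c2. In the 18 Nrf2 target genes listed, 0 passed in either comparison, with medians of -0.05 and -0.03.

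Beside these values, 0 of the 10 enterocyte markers passed in either comparison, with median log2 fold changes of -0.0074 and -0.06. Their summed level was 26432 to 32343 CPM with HCl vehicle, 28293 to 32219 CPM with norepinephrine, 26074 to 30834 CPM with DMSO vehicle and 25356 to 33188 CPM with UK14,304. Of the 5 Paneth cell markers, 2 passed lower with norepinephrine (Lyz1 and Defa22) and 3 with UK14,304 (Lyz1, Defa22 and Ang4). Their summed level was 2334 to 3574 CPM with HCl vehicle, 1906 to 2666 CPM with norepinephrine, 2227 to 3443 CPM with DMSO vehicle and 1941 to 2890 CPM with UK14,304. Of the 4 goblet cell markers, 0 passed with norepinephrine and 1 passed lower with UK14,304, with median log2 fold changes of -0.13 and -0.12. The part of cell type proportions in the values of the xenobiotic genes was not tested.

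The mouse of origin separated these genes far more often than the agonists did. In the same model, with the treatments as terms, 31 of the 38 genes (81.6%) differed between mice, beside 13.8% of all tested genes. The share was 16.8% among genes with a mean of at least 20 CPM and 10.8% among those below it. All 13 genes of the P450 class, which includes the reductase Por, passed. Of these, Cyp1a1 no longer passed without the norepinephrine library of mouse 5. Also past the threshold were 5 of 6 other phase I enzymes, 8 of 10 glutathione transferases, 1 of 3 glucuronosyl and sulfo transferases, 3 of 4 pumps and 1 of 2 receptors. The genes that did not pass were Nqo1, Gstm1, Gstp1, Sult1b1, Sult1d1, Abcg2 and Nr1i2. Over the 31 genes the median distance between the highest and lowest mouse was 0.44 on the log2 scale. Of the 150 other pathway genes, 71 (47.3%) passed.

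Gsta4, which conjugates lipid peroxidation products with glutathione, differed most of the genes counted at more than trace level, with a range of 1.1 on the log2 scale between mice (adjusted p = 3.1e-10). Its mean over all treatments was 180 ± 9.3 CPM in mouse 1 (n = 4), 261 ± 16.0 CPM in mouse 2 (n = 4), 122 ± 7.14 CPM in mouse 3 (n = 4), 182 ± 9.02 CPM in mouse 4 (n = 4) and 182 ± 4.95 CPM in mouse 5 (n = 2). The samples of mouse 2 lay above and those of mouse 3 below all others.
Adh6a also had its highest mean in mouse 2 and its lowest in mouse 3. It was at 232 ± 11.8, 276 ± 24.9, 164 ± 15.5, 234 ± 19.3 and 232 ± 5.24 CPM in mice 1 to 5 (range 0.75 on the log2 scale, adjusted p = 2.6e-08). Adh1 was at 1897 ± 69.5, 1960 ± 72.6, 1342 ± 59.7, 1914 ± 69.3 and 1814 ± 46.6 CPM (range 0.55 on the log2 scale, adjusted p = 1.3e-07), so that mouse 3 alone stood apart. The drug-oxidising family member Cyp2d26 was at 199 ± 6.14, 221 ± 14.3, 146 ± 8.52, 203 ± 16.3 and 189 ± 5.57 CPM (range 0.59 on the log2 scale, adjusted p = 1.7e-06), again lowest in mouse 3.

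Other members were lowest in mouse 2. Abcb1a was highest in mouse 3, at 251 ± 8.03, 216 ± 15.8, 316 ± 18.5, 234 ± 9.48 and 292 ± 6.28 CPM in mice 1 to 5 (range 0.55 on the log2 scale, adjusted p = 1.5e-07). Cyp2j6 was lowest in mouse 2 at 570 ± 51.8 CPM and at 665 ± 85.7 to 772 ± 1.23 CPM in the other mice (range 0.44 on the log2 scale, adjusted p = 1.1e-04), and Aldh1a1 was at 850 ± 73.6 CPM in mouse 2 and at 1008 ± 75.9 to 1229 ± 18.2 CPM in the others (range 0.47 on the log2 scale, adjusted p = 3.3e-05). Of the 31 genes, 21 were lowest in mouse 3 and 9 in mouse 2, and 15 were highest in mouse 2 and 10 in mouse 5. The median deviation of the 38 genes was -0.16 on the log2 scale in mouse 3, beside 0.0048 over all genes, and lay between 0.01 and 0.08 in the other mice.

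**Figure D4:**
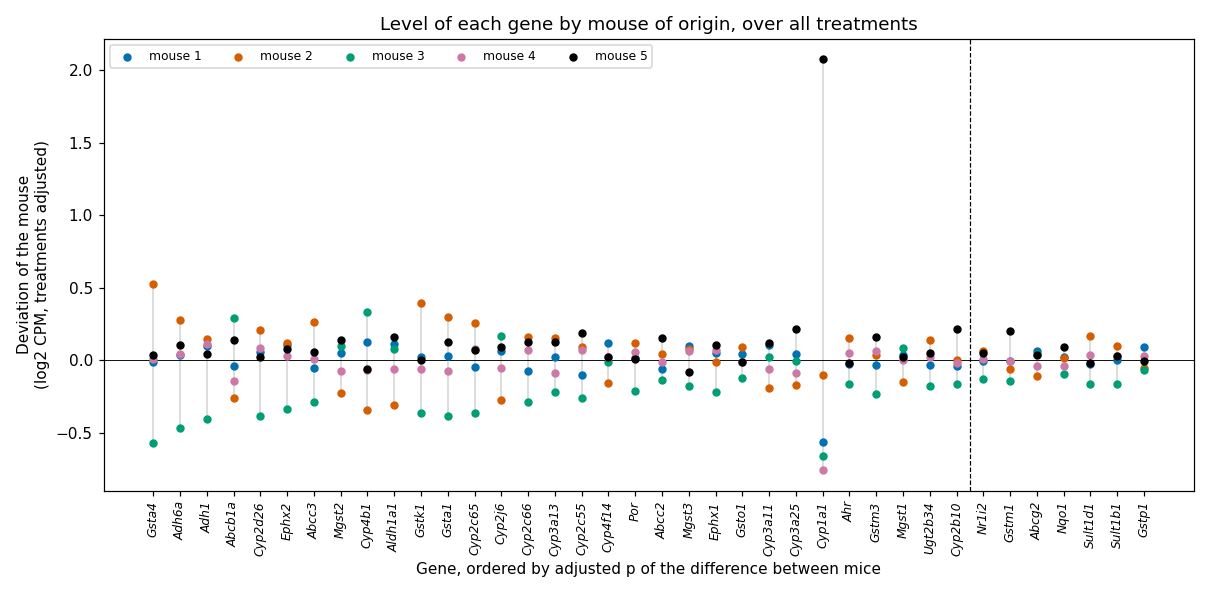
Deviation of each mouse from the mean of the 5 mice for the 38 genes, on the log2 CPM scale with treatments adjusted, ordered by the adjusted p of the difference between mice. Genes left of the dashed line had an adjusted p under 0.05 (31 genes), mouse 3 is the lowest for 21 of them, and Cyp1a1 in mouse 5 stands apart.

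In the model of all 4 groups, the count of 31 was 16 of 38 without mouse 2 (background 5.29%) and 12 of 38 without mouse 3 (background 3.56%). In a model of the vehicle samples alone, 36 of the 38 genes differed between mice, beside 16.8% of all genes. The enterocyte markers moved with the mouse as well. Of the 10, 7 passed, and the median range of the 10 between mice was 0.35 on the log2 scale. Alpi was at 386 to 433 CPM in the samples of mouse 3 and 1696 to 2131 CPM in those of mouse 2. Fabp1 was closer, at 2784 to 3254 CPM in mouse 3 and 3108 to 3657 CPM in mouse 2. For Apoa1 the values in these mice were 1931 to 2198 and 2257 to 2617 CPM. Of the stem cell markers 5 of 6 passed, and of the Paneth cell markers 5 of 5. The part of the cell type proportions in the differences between mice was not tested.

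The difference of the 38 genes with the agonists was also taken within each mouse. The median member difference (norepinephrine minus HCl vehicle, log2) was -0.0076, -0.02, 0.11 and -0.02 in mice 1 to 4. It was positive for 17, 15, 31 and 15 of the 38 genes. With UK14,304 minus DMSO vehicle the median was 0.0016, -0.0035, 0.06 and -0.06, with 19, 19, 29 and 17 genes positive. The same values were not taken over all tested genes. A shift of a whole library therefore cannot be told apart from one of these genes. Each value comes from a single pair of libraries, and the difference between mice in response was not tested.

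Cyp1a1 was at the edge of detection everywhere except in the norepinephrine sample of mouse 5. It was at 0.17, 0.548, 0.391 and 0.285 CPM with HCl vehicle, 0.247, 0.23, 0.204, 0.276 and 4.1 CPM with norepinephrine, 0.387, 0.405, 0.231 and 0.37 CPM with DMSO vehicle, and 0.475, 0.574, 0.413, 0.228 and 0.389 CPM with UK14,304. The high sample had 105 counts, and the UK14,304 sample of the same mouse was within the range of the others. Mouse 5 had no vehicle sample, so that norepinephrine could not be compared with its vehicle in that animal.
Of other genes known to be induced through the aryl hydrocarbon receptor, Cyp1b1 was at 0.039 CPM in that library. This was 1 count, beside 2 to 4 counts in the other 4 norepinephrine samples. Ahrr was at 0.585 CPM (15 counts) beside 0.394 to 0.489 CPM (10 to 12 counts) in the other 4. The counts of Cyp1b1 and Ahrr were too low to rank the samples. Tiparp was at 75.3 CPM beside 53.1 to 65.6 CPM, and Nqo1 at 102.4 CPM beside 88.6 to 101.8 CPM. Without the library, the log2 fold change of Cyp1a1 with norepinephrine went from 0.33 to -0.5 and that with UK14,304 from -0.42 to 0.27, and the difference of Cyp1a1 between mice no longer passed (adjusted p = 0.736).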

How the data were processed

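Organoid libraries (KAPA mRNA HyperPrep, 50 bp single reads) were mapped by the authors with STAR 2.7.3 to GRCm38, per the labels, and reads on the exons of each gene were counted with featureCounts. The deposited values are these counts, without normalization, with the merged exon length of each gene in bases. The table's header names featureCounts 2.0.1 and Ensembl release 102, whereas the labels name Subread 1.6.4. Reads with several mapping places or several genes were not counted and strand was not used. All 18 columns were matched to samples by name. Groups and mouse numbers were taken from the sample labels, in which "m" and a number was read as the mouse.

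Counts were analysed with R 4.3.3 and edgeR 4.0.16 (TMM, filterByExpr by group, robust quasi-likelihood fit) in 1 model of 4 groups with the mouse as a block, over 15247 genes, with Benjamini-Hochberg adjustment and a threshold of 0.05. Differences between mice were tested with the coefficients of the mice in that model. The study's methods name DESeq2 and no model formula. The members and the lists were chosen with earlier results of these data known. The members described one by one were those past the threshold, the highest of each class, the 3 largest rises and 3 largest falls in each comparison, the receptors, and the 5 with the smallest p between mice; others were named after their values were seen. As a check of the pairing, deviations from the group means correlated between samples of one mouse (mean r 0.277 over 25 pairs, lowest -0.212, across genes, beside -0.0716 over 96 pairs of different mice). Replicates were samples of different mice. Promoters were taken from RefSeq (GRCm38.p6). GC content came from GENCODE M21 transcripts for 15229 of the tested genes, and near copies were searched among them with blastn 2.17.0 (at least 50 bp, 95% identity).

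Alternatives were DESeq2's size factors, other filters, no block, each agonist with its own vehicle alone, pooled vehicles, a removed GC trend (lowess, span 0.3), a ribosomal RNA term, DESeq2 1.42.0, stricter thresholds, and leaving out each sample or mouse. Chosen after seeing the data were the vehicle-only test of mice, the genes of at least 20 CPM as a background, and GC removal combined with the ribosomal RNA term or with leaving out 1 library. On simulated counts of 15037 genes modelled on the UK14304 comparison, 100% of genes changed by 1 and 81% of genes changed by 0.5 on the log2 scale were called, 7.18% of calls were unchanged genes, and 92.2% of simulated mouse differences were called. The simulation gave every gene the same spread and held no GC trend. No change smaller than 0.5 was simulated, so these rates do not tell how often member differences of the size seen here would be called.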

Additional observations from a re-analysis of the deposited data

Results flagged for a closer look

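Within groups of 4 or 5 samples, the highest and lowest values of the 19 genes described in detail were compared with the others by Dixon's ratio of gap to range, in 76 groups. In 5 of them a sample lay farther out than the 95% critical value, where about 1 in 20 groups would do so by chance. Adh1 was lowest in mouse 3 with HCl vehicle (1317 CPM, the next at 1929 CPM) and with UK14,304 (1339 CPM, the next at 1822 CPM), and Gstm1 was lowest in mouse 3 with DMSO vehicle (394 CPM, the next at 514 CPM). Cyp1a1 was highest in mouse 5 with norepinephrine (4.1 CPM, the next at 0.276 CPM), and Cyp2c55 was highest in the same library (159 CPM, the next at 128 CPM). No cause was tested. For none of the 19 genes did the agonists differ in effect in the test of the difference.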

How the results depend on the processing

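The count of members past the threshold with norepinephrine was 0 in all settings tried except those without the norepinephrine library of mouse 4 or without mouse 4 altogether. Leaving out a library or a mouse gave 0 to 12 members (related genes 0 to 31), beside 0.0261 to 16.7% of all genes. The upper ends were those without the norepinephrine library of mouse 4. Without that library and with the GC trend removed the member count was 1 (related genes 7), beside 3.21%. Related genes past the threshold with norepinephrine were 0, but 6 without a filter on low counts and 1 each with the GC trend removed, with DESeq2 and the replicate block, and with GC removal and the ribosomal RNA split. With UK14,304 the member count was 1. It was 5 without a filter (1.88% of all genes), 6 with the samples of the other agonist and vehicle left out (3.55%), 4 with both vehicles pooled (4.87%), 2 with the GC trend removed (4.11%) and 5 with GC removal and without the norepinephrine library of mouse 4 (7.2%), beside 1.22% of all genes in the model with all samples. It was 0 with the ribosomal RNA split (0.512%) and with that and GC removal (1.45%). The member count was also 0 at an adjusted p under 0.01 and under an added limit of 0.5 on the size of the log2 fold change. The share of all genes under these limits was not taken. When a library or mouse was left out, 0 to 8 members passed, beside 0.15 to 8.08% of all genes. Related genes past the threshold with UK14,304 were 4, and 13, 11, 16, 9 and 13 in the settings in which the members were 5, 6, 4, 2 and 5; they were 1 under the added limit of 0.5 and 1 to 21 when a library or mouse was left out. Without the block of mice, that is without the pairing, 0 members and 0 related genes passed with UK14,304 in edgeR, beside 0.0394% of all genes. In DESeq2 without the block the counts were 0 and 0, beside 0.302%. Members that differed between mice numbered 12 to 35 when a library or mouse was left out, beside 3.56 to 29.2% of all genes. The fewest were without mouse 3. The median log2 fold change of the members with UK14,304 turned from 0.03 to -0.0192 with the GC trend removed. The block changed no call other than those given. For the other values of single genes, 1284 kept their direction and side of the threshold, 43 came to pass and 53 no longer passed.

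Fold changes that changed sign were all of genes that had not passed. With norepinephrine, removing the GC trend (alone, with the ribosomal RNA split, and without the norepinephrine library of mouse 4) gave log2 values for Abcb1a of -0.0036, -0.00062 and -0.0029, for Abcc2 of -0.0183, -0.0178 and -0.0181, for Cyp2d26 of 0.0025, 0.0012 and 0.016, for Gstm1 of 0.0472, 0.0496 and 0.0522, and for Ugt2b34 of -0.0302, -0.0318 and -0.0462, and for Nr1i2 0.0017 and 0.0142 in the last pair of these settings. Gstm1 was also at 0.0074 without a filter, 0.0461 without the block in edgeR, 0.0489 without it in DESeq2, 0.0105 with its own vehicle alone and 0.00063 with pooled vehicles, and Adh1 at -0.00397 with pooled vehicles. With UK14,304, Ugt2b34 was at -0.0473, -0.0383 and -0.0484 in the same 3 GC settings, Gstk1 at 0.0274 with the ribosomal RNA split and 0.0398 with GC removal added, and Abcc2 at 0.0357 and 0.0403 without the block in edgeR and DESeq2. Cyp1a1 was at 0.262 and 0.261 without the block in the same tools, 0.28 with its own vehicle alone, 0.349 with the ribosomal RNA split and 0.361 with GC removal added. Leaving out a library or mouse gave ranges with norepinephrine of -0.0165 to 0.0669 for Abcc2, -0.0235 to 0.0456 for Adh1, -0.5024 to 0.714 for Cyp1a1, -0.0469 to 0.031 for Gsta4 and -0.064 to 0.0508 for Gstm1, and with UK14,304 of -0.0353 to 0.0211 for Abcc2, -0.817 to 0.281 for Cyp1a1, -0.0466 to 0.0529 for Gstk1 and -0.0135 to 0.113 for Ugt2b34. The cause was not tested. Cyp1a1 had 4 to 16 counts in 17 libraries and 105 in the other, so its values are the least precise, and the other members had at least 385 counts in each library.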
